A study of Mus musculus with 21 samples.

Results

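The integrin genes described here are 7 of the 17516 gene symbols listed in every count table: Itgae, Itgb7, Itga4, Itgal, Itgb1, Itgb2 and Itga1. They were chosen by name, as chains of the integrins known on T cells, and with earlier results of these data known. All 7 were found in all 21 libraries. The study measured single-cell RNA in OT1 cells, CD8 T cells from mice that carry a transgenic receptor for an ovalbumin peptide. All groups shared that receptor. One library held naive cells before activation (day 0). The other libraries held cells activated with beads coated with antibodies to CD3 and CD28. At days 3 and 5, 1 library each was cultured with no added cytokine. The other 18 libraries were cultured with interleukin-2 (IL-2), with IL-2v (a variant whose treatment label names a mutant IL-2) or with interleukin-15 (IL-15), each at 5 or 50 IU/mL and sampled at days 3, 5 and 10. Each condition was 1 library, so no comparison has a replicate and no p-value is given. The age and number of the animals are not given in the labels.

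Integrins are cell-surface receptors made of 1 alpha and 1 beta chain that hold cells to other cells and to matrix. In CD8 T cells, alphaE (Itgae, CD103) pairs with beta7 (Itgb7) and binds E-cadherin on epithelium, and alpha4 (Itga4) pairs with beta7 or beta1 (Itgb1) and binds MAdCAM-1 and VCAM-1 on vessels. AlphaL (Itgal) pairs with beta2 (Itgb2) as LFA-1, which binds ICAM molecules during contact with antigen-presenting cells and vessels, and alpha1 (Itga1, CD49a) pairs with beta1 as a receptor for collagen.

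On the GRCm38 (mm10) build with the GENCODE vM21 annotation, all 7 genes are protein-coding. Itgae (ENSMUSG00000005947.11) lies at chr11:73090583-73147446 on the plus strand. Itgb7 lies at chr15:102215995-102231944 on the minus strand and Itga4 at chr2:79255426-79333123 on the plus strand. Itgal lies at chr7:127296260-127335138, Itgb1 at chr8:128685654-128733200 and Itgb2 at chr10:77530252-77565708, all on the plus strand. Itga1 lies at chr13:114953096-115101964 on the minus strand. Of the exonic bases of Itga4, 8.04% overlap the antisense gene Cerkl, and of those of Itga1, 3.68% overlap Gm49395 on the same strand. Whether the counting used strand is not given in the sources used here, so a part of the Itga4 count cannot be assigned with certainty.

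RefSeq upstream sequence (GRCm38.p6) was matched for 4 of the 7 genes, Itga4, Itgb7, Itgb1 and Itga1. The 250 bases before the RefSeq gene start are printed for Itga4, which changed in several comparisons, for its partner Itgb7, and for Itga1, which was high in few libraries. Each is written in the direction of transcription. The RefSeq start of Itgb7 lies slightly inside the GENCODE gene, so its window overlaps the end of the span given above. Capitals mark matches, on either strand, to 3 short motifs: CACCC (bound by KLF factors), TTCNNNGAA (bound by STAT factors, which IL-2 and IL-15 signal through) and TGTGGT (bound by RUNX factors).
Itga4 (chr2:79255176-79255425, plus strand): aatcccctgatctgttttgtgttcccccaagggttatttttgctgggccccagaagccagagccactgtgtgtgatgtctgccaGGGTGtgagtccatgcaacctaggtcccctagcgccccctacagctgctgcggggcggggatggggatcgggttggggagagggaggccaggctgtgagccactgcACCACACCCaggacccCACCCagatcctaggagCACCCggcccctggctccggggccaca
Itgb7 (chr15:102231936-102232185, minus strand): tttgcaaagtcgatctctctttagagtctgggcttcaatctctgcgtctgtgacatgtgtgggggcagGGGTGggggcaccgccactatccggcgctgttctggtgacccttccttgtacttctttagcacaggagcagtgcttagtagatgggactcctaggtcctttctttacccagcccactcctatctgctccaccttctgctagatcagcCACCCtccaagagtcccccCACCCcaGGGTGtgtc
Itga1 (chr13:115101965-115102214, minus strand): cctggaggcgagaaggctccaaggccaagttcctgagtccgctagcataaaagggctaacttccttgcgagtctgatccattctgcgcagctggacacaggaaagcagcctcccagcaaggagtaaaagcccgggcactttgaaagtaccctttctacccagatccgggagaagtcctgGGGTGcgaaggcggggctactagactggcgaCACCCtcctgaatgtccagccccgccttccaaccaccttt
Itga4 and Itgb7 held 4 matches to CACCC each, and Itga1 and Itgb1 held 2 each. Itga4 also held 1 match to TGTGGT, which overlapped a CACCC match. None of the 4 windows held TTCNNNGAA. Of 32851 upstream windows of 250 bases in the same table, 52.0% held CACCC, 14.0% held TGTGGT and 7.02% held TTCNNNGAA. A match is a description of the letters and not evidence of binding.

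The libraries held 3250 to 7105 kept cells and 10589950 to 32648496 UMIs (unique molecular identifiers, tags that count captured RNA molecules), with a median of 3016 to 5065 UMIs per cell. All 6 T cell markers were detected, with at least 1 of them in 99.9 to 100% of the cells of each library, so the T cell label was met. Cd4 reached 4.39 CPM (UMIs of a gene per 1000000 UMIs) at most. The NK cell list summed to 7.96 to 193 CPM, highest with 50 IU/mL IL-2v at day 10, where Eomes, which activated CD8 T cells also make, held 156 CPM. In that library Klrb1c, which encodes NK1.1, was at 36.7 CPM with a UMI in 13.0% of cells, and it was at 0 in 6 libraries. Ncr1 was at 0 in 20 of 21 libraries. The part of the NK genes in the integrin values of that library was not tested. Cells with 2 or more UMIs from markers of other lineages, or with Cd4 and no Cd8 UMI, made up 0.128 to 1.98% of a library. These other lineages were B, myeloid, dendritic, erythroid, platelet and mast cells, without the NK list. At least 1 UMI of the NK list was in 3.02 to 52.1% of the cells of a library. Pairs of libraries shared 1 to 19 cell barcodes, at most 0.340% of the smaller library. Cells with a UMI of the division genes Mki67 or Top2a ranged from 3.01% (naive) to 86.9% (50 IU/mL IL-2v, day 3). The shares in this paragraph, and the library shares of cells with a division gene given below, are of all UMIs of a cell, so they depend on depth.

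Levels are given as CPM of the UMIs summed over the cells of a library. They are bulk values, in which fewer positive cells and less RNA per positive cell cannot be told apart. The average counts per positive cell were low in every library. After thinning each cell to 2000 UMIs, a positive cell held 1 to 1.60 UMIs of a member on average, and for all 7 members the library with the highest CPM also had the highest share. Intervals are exact Poisson intervals for CPM and exact Clopper-Pearson intervals for shares, at 95%, and cover counting error only. No cell type that should lack these genes was present, so no background share from free RNA could be measured.

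**Figure D1:**
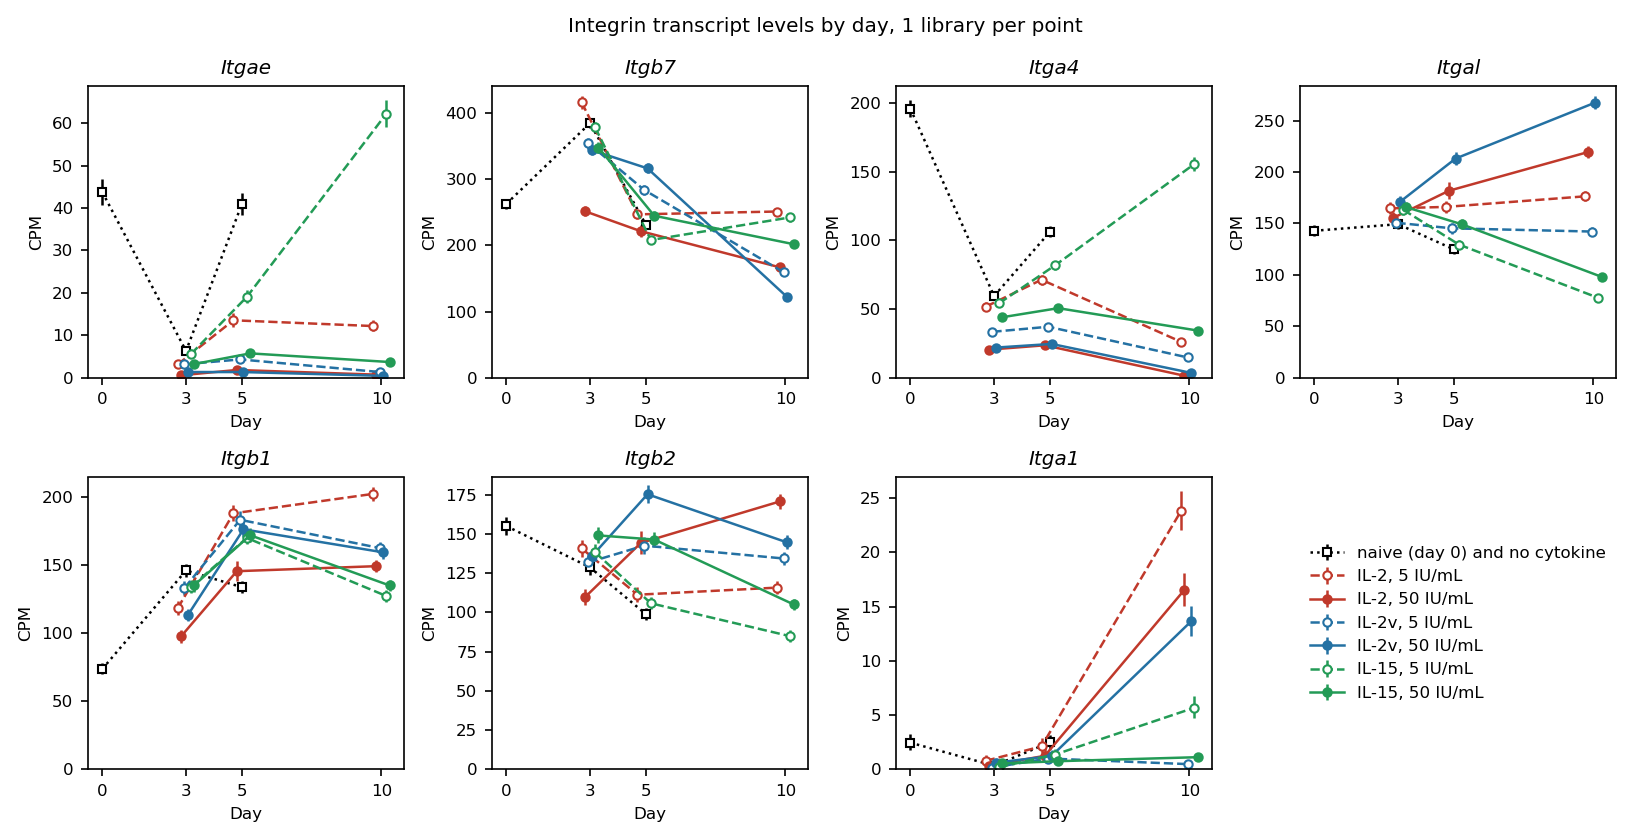
Level of each integrin gene (CPM, vertical axis from 0) against day of culture, 1 library per point with its exact Poisson 95% interval. Squares joined by dotted lines are the naive library and the libraries without cytokine, dashed lines with open symbols are 5 IU/mL and solid lines with filled symbols are 50 IU/mL. Itgae and Itga4 start high, are low at day 3 and reach 62.2 and 156 CPM with 5 IU/mL IL-15 at day 10.

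Itgae and Itga4 varied widely. Itgae ranged from 0.403 CPM (50 IU/mL IL-2v, day 10) through a median of 3.67 CPM to 62.2 CPM (5 IU/mL IL-15, day 10), a 154-fold range, and reached 20 CPM in only 3 of 21 libraries. Itga4 ranged from 1.36 CPM (50 IU/mL IL-2, day 10) through a median of 37.0 CPM to 196 CPM in the naive library, a 144-fold range. Itgal and the 3 beta chains had narrower ranges. Itgb7 spanned 122 to 416 CPM, Itgal 77.5 to 268 CPM, Itgb1 73.6 to 202 CPM and Itgb2 84.8 to 175 CPM, ranges of 3.41-fold, 3.45-fold, 2.75-fold and 2.07-fold. Itga1 was at 5.66 CPM or less in 18 of 21 libraries and reached 13.6 to 23.8 CPM in the other 3, all at day 10. Its lowest libraries held too few UMIs for a fold range.

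**Figure D2:**
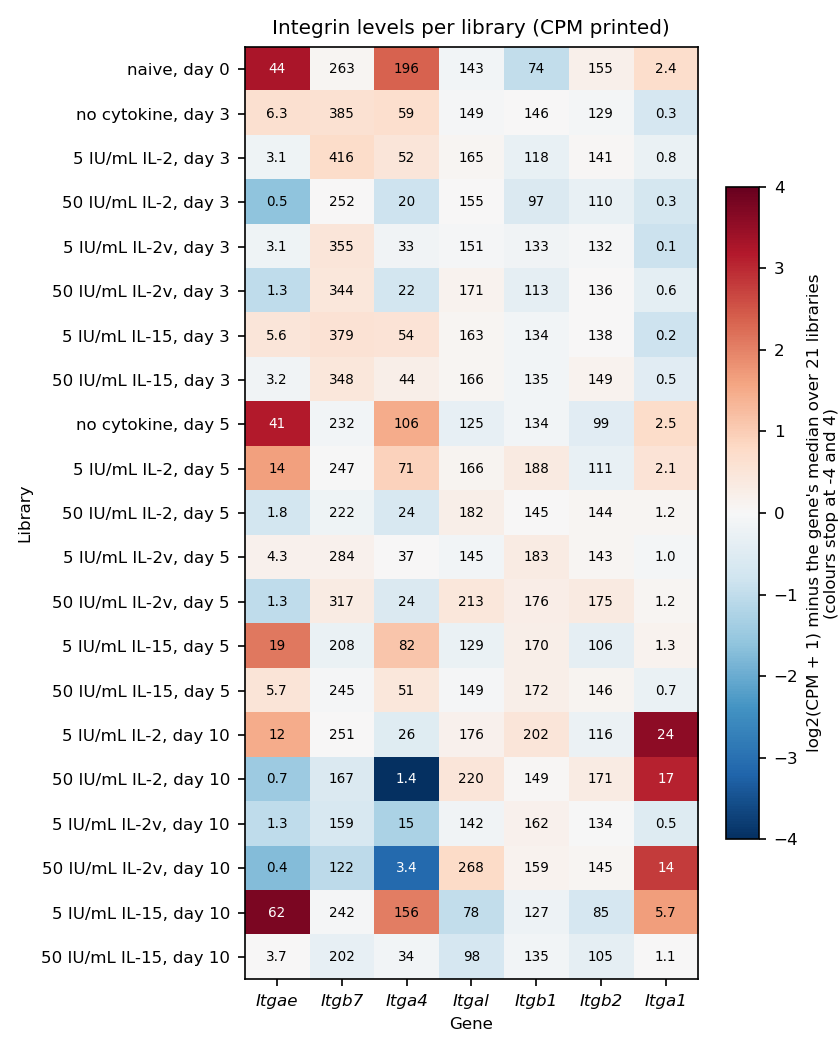
Level of each integrin gene (columns) in each library (rows). The printed number is the CPM, and the colour is log2(CPM + 1) minus the gene's median over the 21 libraries, with red higher and blue lower. The deepest red lies in the Itgae column and the deepest blue in the Itga4 column. The Itga1 column is also deep red in some libraries of day 10, and the Itgb2 column stays pale.

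Naive cells expressed Itga4 at 196 CPM and Itgae at 43.8 CPM, and both were lower after 3 days of activation without cytokine, at 59.4 and 6.29 CPM. Both fell by at least 2-fold, Itgae with a log2 difference of -2.62 and Itga4 of -1.70. All log2 differences here are between values of log2(CPM + 1), a scale that understates changes of low genes. A difference of 1 pair was counted as a change where it reached 1 in size and the gene reached 20 CPM in either library. By that measure 8.31% of the genes considered were lower and 11.1% were higher at day 3, so 2 lower members of the 6 past that limit stand against a wide shift. Itgae reached 20 CPM through the naive library alone.

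Itgb1, the common beta chain of the VLA family, was at 73.6 CPM in naive cells, the lowest of all 21 libraries, and at 146 CPM at day 3. Its log2 difference of 0.98 was just under the limit. It passed the limit with TMM scaling (1.03), with median-of-ratios size factors (1.06), without cells over 2 times the median UMIs (1.08) and without cells holding markers of other lineages (1.01). Itgb7 was at 263 and 385 CPM (0.55), Itgal at 143 and 149 CPM (0.06) and Itgb2 at 155 and 129 CPM (-0.27). The Itgal direction turned to -0.10 when cells were held to 5% mitochondrial UMIs. Itga1, at 2.44 and 0.315 CPM (-1.39) with intervals apart, was below the expression limit.

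Naive cells were not uniform. Of the naive cells thinned to 2000 UMIs, 433 (9.68%) held a UMI of Ccl5, a chemokine gene of antigen-experienced CD8 T cells, and 4038 did not. Itgb1 was at 223 CPM in the former and 52.5 CPM in the latter. Itga4 was at 376 and 178 CPM, Itgal at 260 and 133 CPM and Itgb2 at 273 and 134 CPM. The intervals of these 4 genes did not overlap between the cell sets, and each was higher in the cells with Ccl5. Of all genes considered in this split, 10.2% were higher and 5.12% lower with intervals apart. Itga1 had 17 UMIs (19.6 CPM) in the 433 cells and 2 UMIs (0.248 CPM) in the 4038 cells, so most Itga1 counts of the naive library lay in the smaller set. At under 20 CPM on both sides, Itga1 is not among the genes behind these 2 shares. Itgae went the other way, at 25.4 CPM with Ccl5 and 44.9 CPM without, and Itgb7 at 271 and 258 CPM had overlapping intervals. Cells are not replicates, and these values describe 1 library.

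**Figure D3:**
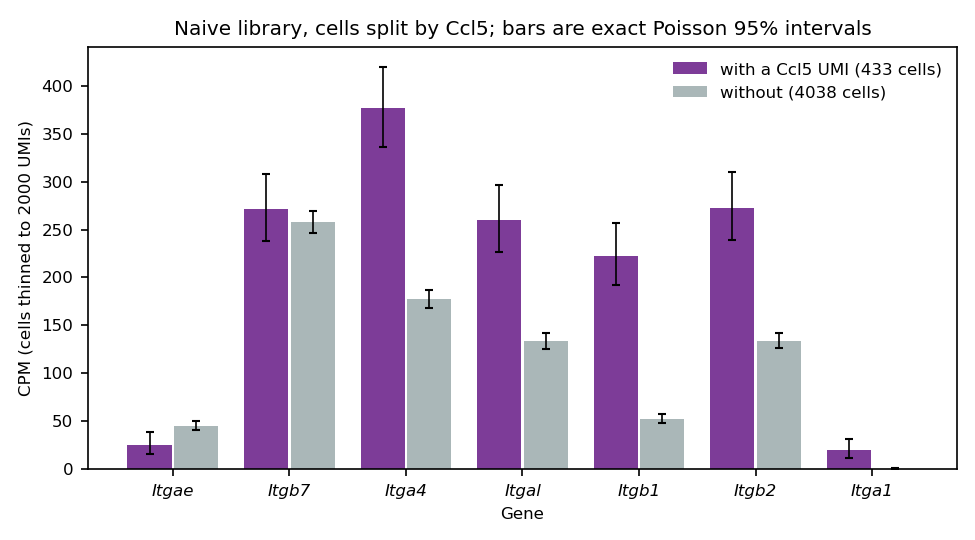
CPM of each integrin gene (bars from 0, after thinning to 2000 UMIs per cell) in naive cells with and without a Ccl5 UMI, with exact Poisson 95% intervals. Itgb1, Itga4, Itgal, Itgb2 and Itga1 are higher in the 433 cells with Ccl5, Itgae is lower and the Itgb7 intervals overlap.

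Without cytokine, Itgae returned between days 3 and 5. It was at 6.29 CPM at day 3 and 40.9 CPM at day 5, a rise of 2.52 on the log2 scale, and its day 5 interval overlapped that of the naive library. In this pair 3.61% of the genes considered were higher and 9.47% lower, and Itgae was the only member counted as changed. It reached 20 CPM through the day 5 library alone. Itga1, below the expression limit, was at 0.315 and 2.45 CPM (1.39) with intervals apart. Itga4 was at 59.4 and 106 CPM (0.83), below the limit. Itgb7 was at 385 and 232 CPM (-0.73), Itgb2 at 129 and 98.9 CPM (-0.38), Itgal at 149 and 125 CPM (-0.26) and Itgb1 at 146 and 134 CPM (-0.13, but higher at day 5 in cells without a division gene). The share of cells with a UMI of Mki67 or Top2a was 60.0% at day 3 and 13.8% at day 5 in these libraries, and its part in the differences was not tested.

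Itgae was lower with cytokine than without. Each of the 12 cytokine libraries of days 3 and 5 was paired with its control without cytokine, and Itgae was lower in 12 of 12 pairs, with a median log2 difference of -1.59 and a range of -4.19 to -0.15. The mean was 5.21 CPM with cytokine and 23.6 CPM without. Where a comparison had several pairs, a change was counted only if every pair had the same sign and the median reached 1 in size. Of the genes considered, 0.19% were lower and 0.675% higher by that measure. Of 72 single values (6 members past the expression limit in 12 pairs), 14 were at least 2-fold lower and 0 higher, beside 1.9% and 5.64% of such values over all genes. The 12 pairs share 1 control library per day, so they are not independent. All 14 lower values were those of Itgae or Itga4. Itgae reached 20 CPM through the controls alone, where it was high. The limit thus favoured lower values of Itgae, and its part of the 14 is no separate support. At day 5 the control was at 40.9 CPM and the 6 cytokine libraries spanned 1.30 to 19.0 CPM. At day 3 the control was at 6.29 CPM and the 6 spanned 0.545 to 5.58 CPM, so all 12 lay below their control. The change was no longer counted without day 5 (-0.82), with 10 CPM added before the logarithm (-0.72) or at 5% mitochondrial UMIs, where 1 pair was higher.

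Itga4 was also lower in 12 of 12 pairs, with a median log2 difference of -0.93 (range -2.13 to -0.13), just under the limit. It passed with TMM scaling and with median-of-ratios size factors (-1.02 in both) and without day 3 (-1.27), and 1 pair was higher in cells without a division gene. Its day 5 control was at 106 CPM against 23.5 to 81.6 CPM with cytokine, and its day 3 control at 59.4 CPM against 20.4 to 54.1 CPM. Within each day the smallest difference was that of 5 IU/mL IL-15 (-0.13 at day 3 and -0.37 at day 5). Itgal was higher in 12 of 12 pairs by a median of 0.17, but in 10 with TMM scaling, with median-of-ratios size factors, with totals without ribosomal protein and mitochondrial genes, with the mean of single cells and in cells without a division gene. Itgb2 was higher in 11 of 12 pairs (0.15), and in 9 under the first 3 of these. Itgb7 was higher in 5 of 12 (-0.04) and Itgb1 in 6 of 12 (0.01), where all 6 day 3 pairs were lower and all 6 day 5 pairs higher (5 with TMM scaling).

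Itga4 differed between IL-15 and the other cytokines. With IL-15 it was higher than with IL-2 in 6 of 6 pairs of equal day and dose, with a median log2 difference of 1.07 (range 0.07 to 3.90), the only member past the expression limit that was counted as changed. Of the genes considered, 0.49% were higher and 1.7% lower. Of 30 single values of members, 4 were at least 2-fold higher and 2 lower, beside 3.15% and 5.27% over all genes. With totals without ribosomal protein and mitochondrial genes, where Itgae also passed the expression limit, 8 of 36 were higher and 0 lower. Itgae passed there through the IL-15 libraries alone, where it was high, so its part of the 8 is no separate support. At 5 IU/mL, Itga4 was at 54.1 CPM with IL-15 and 51.6 CPM with IL-2 at day 3, 81.6 and 71.2 CPM at day 5, and 156 and 26.1 CPM at day 10. At 50 IU/mL it was at 44.0 and 20.4 CPM, 50.5 and 23.5 CPM, and 34.2 and 1.36 CPM, the last a 25.2-fold difference. The gap was widest at day 10 at both doses, and the day 3 values at 5 IU/mL were nearly equal. Without day 10 the median was 0.63. The change was also no longer counted with 10 CPM added (0.84), in cells without a division gene (0.94) and at 5% mitochondrial UMIs, where the lowest pair was -0.02.

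Itgae was higher with IL-15 than with IL-2 in 6 of 6 pairs too (median 1.35, range 0.46 to 2.26), but at means below the expression limit. It was counted as changed with totals without ribosomal protein and mitochondrial genes (1.60) and without day 3 (1.36). In both settings it reached 20 CPM through the IL-15 libraries alone. Its widest pair was 62.2 against 12.2 CPM at 5 IU/mL, day 10. Itgal was lower with IL-15 at day 10, at 77.5 against 176 CPM (-1.18) at 5 IU/mL and 97.98 against 220 CPM (-1.16) at 50 IU/mL, and the differences at days 3 and 5 lay between -0.36 and 0.09. Itgb2 was lower at day 10 too (-0.45 and -0.70). With totals without ribosomal protein and mitochondrial genes, 0 member values were at least 2-fold lower, so neither Itgal value stayed at 2-fold. At day 10, ribosomal protein genes held 40.4% (5 IU/mL) and 42.2% (50 IU/mL) of UMIs with IL-15. With IL-2 they held 31.5 and 32.1%, and their part in the differences was not tested. Itga1, below the expression limit on average, was lower with IL-15 at day 10 by more than either LFA-1 chain, at 5.66 against 23.8 CPM (-1.90) at 5 IU/mL and 1.10 against 16.5 CPM (-3.06) at 50 IU/mL. Itgb1 was lower at day 10 as well, at 127 against 202 CPM at 5 IU/mL and 135 against 149 CPM at 50 IU/mL. With totals without ribosomal protein and mitochondrial genes it was higher with IL-15 in 4 of the 6 pairs instead of 3. The pair that turned was that of 50 IU/mL at day 10. At day 10, then, Itgae and Itga4 were higher and Itga1 and both LFA-1 chains lower with IL-15, while Itgb1 was lower under both totals at 5 IU/mL only. The day 10 libraries with IL-15 also held fewer dividing cells at 5 IU/mL, with a UMI of Mki67 or Top2a in 5.21% of cells against 18.2%, but similar shares at 50 IU/mL, 13.1% and 13.4%, and the part of division in the differences was not tested.

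By the same measure no member was counted as changed between IL-2v and IL-2, where 1.04% of the genes considered were higher and 0.274% lower. None of 30 single values of the 5 members past the expression limit was at least 2-fold apart, beside 4.32% higher and 2.25% lower over all genes. With no expression limit, which adds Itgae and Itga1, 3 values were at least 2-fold lower. The widest was that of Itga1 at 5 IU/mL, day 10, at 0.459 CPM with IL-2v and 23.8 CPM with IL-2 (-4.09), with intervals apart. The other two were those of Itgae, at 5 IU/mL at day 5 (4.29 against 13.5 CPM) and at day 10 (1.32 against 12.2 CPM). Itga4 was lower with IL-2v in 3 of 3 pairs at 5 IU/mL (33.3 against 51.6 CPM, 37.0 against 71.2 CPM and 14.7 against 26.1 CPM), with log2 differences of -0.62, -0.93 and -0.79. At 50 IU/mL it was higher in 3 of 3, by 0.10, 0.06 and 0.92. The intervals of the first 2 of these pairs overlapped, and the last pair was 3.44 against 1.36 CPM. Only 2 of the 6 pairs were higher with TMM scaling, with median-of-ratios size factors, with totals without ribosomal protein and mitochondrial genes, with the mean of single cells and in cells without a division gene. Without replicates there is no interval for the difference beyond counting error, and a median under the limit does not show that the proteins act alike.

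Against IL-15, IL-2v had lower Itga4 in 6 of 6 pairs, with a median log2 difference of -1.07 (range -3.32 to -0.68). Of the genes considered, 0.585% were lower and 2.48% higher. Of 30 single values of members, 4 were at least 2-fold lower and 1 higher, beside 2.18% and 5.93% over all genes. With totals without ribosomal protein and mitochondrial genes, where Itgae also passed the expression limit, 10 of 36 were lower and 1 higher. Itgae passed there through the IL-15 libraries alone, where it was high, so its part of the 10 is no separate support. The widest Itga4 pairs were at day 10, at 14.7 against 156 CPM (5 IU/mL) and 3.44 against 34.2 CPM (50 IU/mL). The Itga4 median was just under the limit without day 10 (-0.996) and lower in size with 10 CPM added (-0.89). Itgae was lower in 6 of 6 (median -1.64, range -4.77 to -0.67), below the expression limit, and was counted with totals without ribosomal protein and mitochondrial genes (-1.99) and without day 3 (-1.83). In both settings it reached 20 CPM through the IL-15 libraries alone. Itga1, also below the expression limit, was at 0.459 against 5.66 CPM at 5 IU/mL, day 10 (-2.19) and at 13.6 against 1.10 CPM at 50 IU/mL, day 10 (2.80), so its direction differed between the doses. Itgal was higher with IL-2v in 5 of 6 pairs (median 0.34), and in 3 of 6 with TMM scaling or median-of-ratios size factors, with day 10 differences of 0.87 and 1.44. The 3 comparisons between cytokines share their libraries, so they are not independent of each other.

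**Figure D4:**
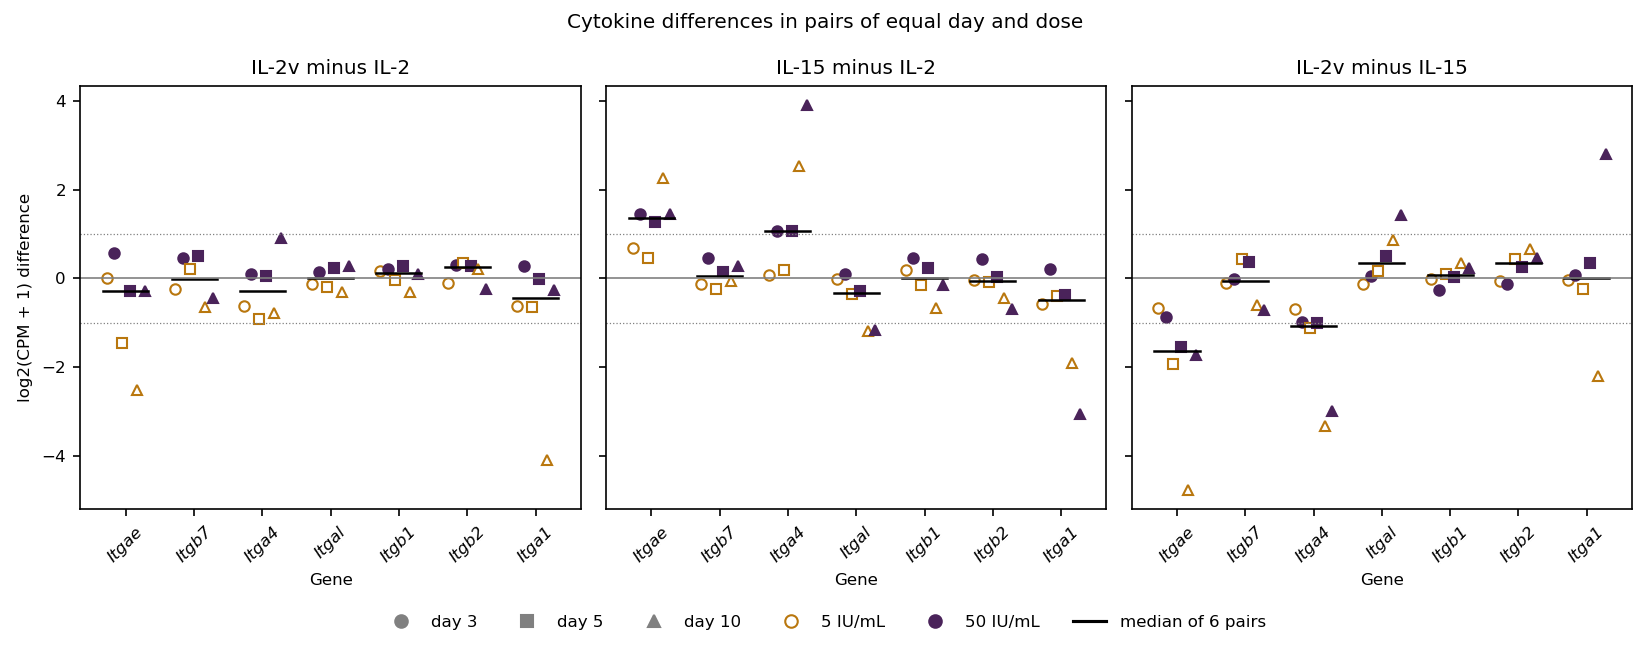
Differences of log2(CPM + 1) between cytokines for each integrin gene, 1 point per pair of equal day (symbol) and dose (open 5 IU/mL, filled 50 IU/mL). Black bars are medians of 6 pairs and dotted lines mark 1 and -1. All 6 Itga4 points lie above 0 for IL-15 minus IL-2 and below 0 for IL-2v minus IL-15, while its 3 points at 5 IU/mL lie below 0 and its 3 at 50 IU/mL above 0 for IL-2v minus IL-2.

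With IL-2, Itga4 was lower at the higher dose. At 50 against 5 IU/mL it was at 20.4 against 51.6 CPM at day 3, 23.5 against 71.2 CPM at day 5 and 1.36 against 26.1 CPM at day 10. The median log2 difference was -1.56 (range -3.52 to -1.30), where 2.7% of the genes considered were lower and 4.29% higher. Of 15 single values of members, 3 were at least 2-fold lower and 0 higher, beside 6.68% and 7.58% over all genes, and all 3 were those of Itga4. Itga4 reached 20 CPM on average through the 5 IU/mL libraries alone (means of 49.6 and 15.1 CPM). Itgae was lower at all 3 days, with a median of -2.38, below the expression limit. Itgb7 (-0.59) and Itgb1 (-0.37) were lower at 50 IU/mL at all 3 days, and kept that direction under TMM scaling and median-of-ratios size factors.

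With IL-15, the gene counted as changed was Itgae. It was at 3.21 against 5.58 CPM at day 3, 5.71 against 19.0 CPM at day 5 and 3.67 against 62.2 CPM at day 10. The median log2 difference was -1.58 (range -3.76 to -0.64), where 0.181% of the genes considered were lower and 0.869% higher. Of 18 single values of members, 3 were at least 2-fold lower and 0 higher, beside 0.724% and 2.11% over all genes. It reached 20 CPM through the 5 IU/mL libraries alone, and the change was not counted with 10 CPM added (-0.89) or without day 10. Itga4 was lower at all 3 days, with a median of -0.68 and a day 10 pair of 34.2 against 156 CPM (-2.15). It passed without day 3 (-1.42) and without day 5 (-1.22). Itga1, below the expression limit, was at 1.10 against 5.66 CPM at day 10 (-1.67).

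With IL-2v no member was counted as changed, where 0.626% of the genes considered were lower and 2.38% higher. Of 15 single values of members, 1 was at least 2-fold lower and 0 higher, beside 2.63% and 3.72% over all genes. Itga4 was lower at 50 IU/mL at all 3 days (median -0.59, day 10 -1.82), and passed in cells without a division gene (-1.15), without day 3 (-1.20) and without day 5 (-1.20). Its day 10 pair was the 1 lower value. Itga4 reached 20 CPM on average through the 5 IU/mL libraries alone (means of 28.3 and 16.6 CPM). Itgal was higher at 50 IU/mL at all 3 days, by 0.18, 0.55 and 0.91, and its day 10 pair of 268 against 142 CPM held the highest value of the gene. Itga1 was at 13.6 against 0.459 CPM at day 10, a 29.7-fold difference in 1 pair. Itgae was lower at all 3 days, by log2 differences of -0.84, -1.20 and -0.72.

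No member was counted as changed between days 3 and 5 with cytokine, where 0.829% of the genes considered were higher and 2.22% lower. None of 30 single values of the 5 members past the expression limit was at least 2-fold apart, beside 1.6% higher and 5.4% lower over all genes. The medians of the other two members, below that limit, were wider. Itgae was higher at day 5 in 5 of 6 pairs (median 0.76), at 13.5 against 3.11 CPM with 5 IU/mL IL-2 (1.82) and 19.0 against 5.58 CPM with 5 IU/mL IL-15 (1.61). Itga1 was higher in 6 of 6 (0.78), at levels from 0.145 to 2.10 CPM. Itgb1 was higher at day 5 in 6 of 6 pairs of equal cytokine and dose (median 0.52), and Itgb7 lower in 6 of 6 (-0.41). Day 3 Itgb7 levels spanned 252 to 416 CPM and day 5 levels 208 to 317 CPM, so the groups overlapped. Itga4 was higher at day 5 in 6 of 6 pairs (0.20). The share of cells with a division gene was 55.7 to 86.9% at day 3 and 18.7 to 66.7% at day 5 with cytokine, and its part in these differences was not tested.

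Between days 5 and 10, 0.0705% of the genes considered were higher and 1.62% lower, and again no member was counted. Of 30 single values of members, 5 were at least 2-fold lower and 0 higher, beside 7.43% and 2.27% over all genes. Of the 5, 4 were those of Itga4 and 1 that of Itgb7, at 122 against 317 CPM with 50 IU/mL IL-2v (-1.37). Itga4 was lower at day 10 in 5 of 6 pairs, from -0.55 with 50 IU/mL IL-15 to -3.38 with 50 IU/mL IL-2. The exception was 5 IU/mL IL-15, where it was at 81.6 CPM at day 5 and 156 CPM at day 10 (0.92). Itgae showed the same exception, with 19.0 and 62.2 CPM (1.66) under 5 IU/mL IL-15 and lower day 10 values in the other 5 pairs. Itga1, below the expression limit on average, was at 2.10 and 23.8 CPM with 5 IU/mL IL-2, 1.23 and 16.5 CPM with 50 IU/mL IL-2 and 1.21 and 13.6 CPM with 50 IU/mL IL-2v. With 5 IU/mL IL-15 it was at 1.34 and 5.66 CPM (1.51). With 5 IU/mL IL-2v it was at 0.977 and 0.459 CPM, so 3 of the 4 IL-2 and IL-2v libraries of day 10 held the high values.

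Over the 21 libraries, the order of the Itgae levels was led by 5 IU/mL IL-15 at day 10, the naive library and the day 5 library without cytokine. The last pair had overlapping intervals, as did 16 of the 20 neighbours in the order. Of the Itga4 neighbours 9 of 20 overlapped, and the first 5 levels were apart: naive (196 CPM), 5 IU/mL IL-15 at day 10 (156 CPM), no cytokine at day 5 (106 CPM), 5 IU/mL IL-15 at day 5 (81.6 CPM) and 5 IU/mL IL-2 at day 5 (71.2 CPM). For Itgb7, Itgal, Itgb1, Itgb2 and Itga1, 13, 15, 16, 17 and 17 of 20 neighbours overlapped. The first 6 libraries in the Itgb7 order were of day 3, with 416 CPM for 5 IU/mL IL-2, while 50 IU/mL IL-2 at day 3 (252 CPM) was the tenth. Itgal was led by 50 IU/mL IL-2v at day 10 (268 CPM), followed by 50 IU/mL IL-2 at day 10 (220 CPM) and 50 IU/mL IL-2v at day 5 (213 CPM).

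The share of thinned cells with a UMI gave the same order at the top. Itgae was detected in 11.01% of cells (unthinned 20.3%) with 5 IU/mL IL-15 at day 10, 7.49% of naive cells and 7.15% of cells without cytokine at day 5, and in a median of 0.733%. Itga4 was detected in 27.6% of naive cells, 23.6% with 5 IU/mL IL-15 at day 10 and 0.298% with 50 IU/mL IL-2 at day 10. The shares of Itgb7 spanned 22.6 to 55.6%, of Itgal 14.8 to 41.3%, of Itgb1 9.42 to 29.8% and of Itgb2 15.5 to 28.5%. Itga1 was detected in 4.24% of cells at most. At this depth most cells with a low transcript have no UMI of it, so the shares are of detected cells only.

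Levels of some members moved together across the 21 libraries. Pearson's r of log2(CPM + 1) was 0.83 for Itgae with Itga4 and 0.74 for Itgal with Itgb2, the chains of LFA-1. It was -0.69 for Itga4 with Itgal and -0.65 for Itgae with Itgal. For the partners Itga4 and Itgb7 it was 0.49, and for Itgae and Itgb7 0.12. The libraries share days, doses and controls, so these are descriptions. Of 5490 genes compared, those most like Itga4 were Cbx7 (0.96), Stk4 (0.96) and Actn1 (0.95). Those most like Itgae were Cdc42se2 (0.96), Slc35b3 (0.95) and Idnk (0.95). Itgb7 was most like Ssbp3 (0.91), Itgal like Sytl2 (0.90), Itgb2 like Ptk2b (0.88), Itgb1 like Cmc1 (0.82) and Itga1 like Ric8a (0.89).

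Partner chains of a heterodimer were compared within cells, as the share of cells with a UMI of both against the product of the single shares. For Itga4 with Itgb7, the product lay inside the interval of the share with both in 21 of 21 libraries, and the share reached 10.6% in naive cells. For Itgae with Itgb7 it lay inside in 20 of 21, and the share with both was above it with 5 IU/mL IL-2 at day 10 (1.28% against 0.834%). For Itga4 with Itgb1 it lay inside in 20 of 21, the exception being no cytokine at day 5 (4.40% against 3.24%). Itgal with Itgb2 was above the product in 5 libraries, such as 50 IU/mL IL-2v at day 5 (10.6% against 9.59%). Itga1 with Itgb1 was above it in 3 libraries, all at day 10, such as 5 IU/mL IL-2 (1.64% against 1.26%). In no library did the whole interval of the share with both lie below the product. Over the libraries, the median ratio of the share with both to the product was 1.08 for Itga4 with Itgb7 and 1.13 for Itgae with Itgb7. It was 1.08 for Itga4 with Itgb1, 1.05 for Itgal with Itgb2 and 1.16 for Itga1 with Itgb1. A product inside the interval thus does not show that the chains were independent. Other pairs of genes were not compared, so a share above the product cannot be called particular to partner chains. Transcripts in 1 cell do not measure paired proteins on its surface.

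**Figure D5:**
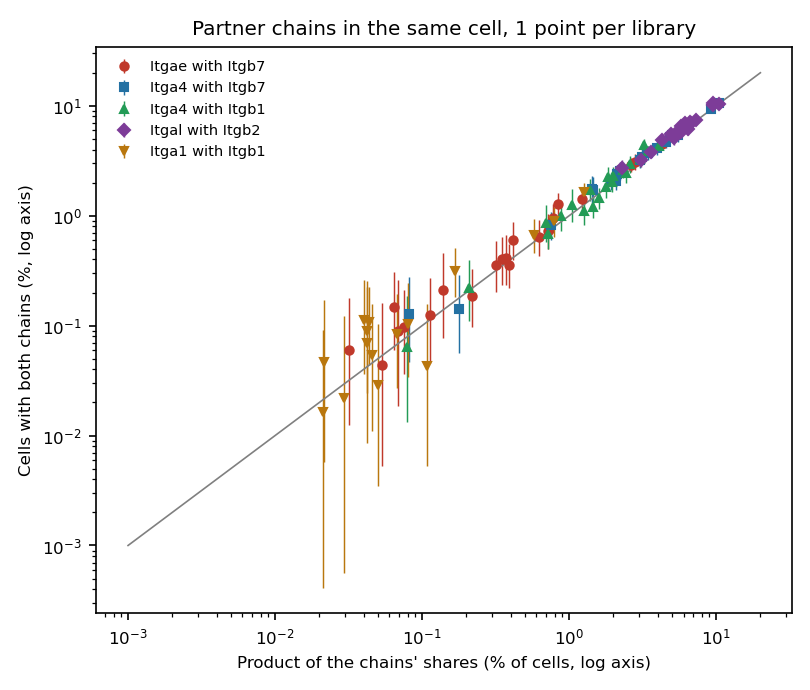
Share of thinned cells with a UMI of both chains (vertical, log axis) against the product of the shares of the single chains (horizontal, log axis), 1 point per library and pair of chains, with Clopper-Pearson 95% intervals and the line of equality. For Itga4 with Itgb7 the line crosses the interval of all 21 libraries. The 5 day 3 libraries without a cell holding both Itga1 and Itgb1 are not drawn on the log axes.

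Dividing cells were compared with the other cells of the same library. Of 19 libraries with at least 200 cells of each kind, Itgb7 was higher in cells with Mki67 or Top2a, with intervals apart, in 11 (median log2 difference 0.21) and Itgb1 in 7 (0.11), and their intervals overlapped in 8 and 12. The other members were higher in 0 to 2 libraries, and Itgae, Itga4 and Itga1 were lower with intervals apart in 1 each. Over all genes at 20 CPM or more on either side and these libraries, 19.1% of values were higher and 8.01% lower with intervals apart. The lower Itgae value (2.63 and 7.19 CPM) and the lower Itga1 value (5.14 and 12.6 CPM) are not in that set. Small differences set intervals apart more readily in genes with many UMIs, such as Itgb7. The shares over all genes are thus no matched background for the Itgb7 count. With 5 IU/mL IL-2 at day 10, 1449 cells held a UMI of Gzma, a granzyme gene, and 4634 did not. Higher in the former, with intervals apart, were Itga1 (54.9 and 14.9 CPM), Itgb1 (265 and 186 CPM) and Itgal (218 and 164 CPM). Lower, with intervals apart, were Itga4 (12.8 and 35.1 CPM), Itgae (7.59 and 14.5 CPM) and Itgb7 (228 and 259 CPM), and the Itgb2 intervals overlapped. In this split 8.53% of all genes considered were higher and 10.7% lower. When the Gzma split was extended to the 8 libraries with enough cells, after these values were seen, Itga1, Itgb1, Itgal and Itgb2 were higher with intervals apart in 2 each and lower in 0. Itgae and Itgb7 were lower in 3 each and Itga4 in 2, and Itgb7 was higher in 1. Over all genes at 20 CPM or more on either side and those 8 libraries, 3.51% of values were higher and 3.94% lower. Itgae was under 20 CPM on both sides in all 8 and is not in that set, and Itga1 is in it only with 5 IU/mL IL-2 and 50 IU/mL IL-2v at day 10. With 50 IU/mL IL-15 at day 10, 917 cells held a Gzmb UMI and 5521 did not, and Itga4 was at 19.1 and 38.6 CPM with intervals apart. Itgb1 went the other way, at 156 and 128 CPM with intervals apart, and the intervals of the other members overlapped. In this split 2.88% of all genes considered were higher and 1.59% lower.

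The Ccl5 split was extended to every library with at least 200 cells on each side, after the values of the naive library were seen. Itga1 was higher in cells with Ccl5, with intervals apart, in 12 of 19 libraries. Over all genes at 20 CPM or more on either side and these libraries, 3.26% of values were higher and 3.24% lower. Itga1 belonged to that set only with 5 IU/mL of IL-2 and of IL-15 at day 10, since it was under 20 CPM on both sides elsewhere, so these shares are no background for its count. With 5 IU/mL IL-15 at day 10, all 69 Itga1 UMIs lay in the 1247 cells with Ccl5 (27.7 CPM), and none in 4147 cells without it (at most 0.445 CPM at the upper interval). With 5 IU/mL IL-2 at day 10, where Itga1 was highest, the cells with and without Ccl5 were at 23.1 and 25.3 CPM and the intervals overlapped. Itgb1 was higher in cells with Ccl5 in 8 of 19 libraries and lower in 1, and Itga4 higher in 6 and lower in 0. Itgal was higher in 4 and lower in 0, Itgb2 higher in 3 and lower in 1, Itgb7 higher in 2 and lower in 3, and Itgae lower in 1.

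Other integrin chains were counted in 16 of the 19 listed, and 4 reached 20 CPM in a library. Itgb3, which pairs with alphaV, ranged from 14.3 to 106 CPM, highest with 5 IU/mL IL-2v at day 5. It rose by 1.02 on the log2 scale on activation and fell by 1.21 between days 3 and 5 without cytokine. Itgav (alphaV) ranged from 9.04 to 72.0 CPM and was higher at 50 than at 5 IU/mL of IL-2 (1.48) and of IL-2v (1.01). Itga6, a laminin receptor chain, was highest in naive cells at 38.2 CPM, fell by 1.47 on activation and was at 4.58 CPM with 50 IU/mL IL-2 at day 10. Itga7 reached 24.3 CPM with 5 IU/mL IL-2v at day 5.

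Integrins are switched to an adhesive state from inside the cell by talin, kindlin and the Rap1 pathway. Of 30 such genes listed, 27 were counted and 23 reached 20 CPM in a library. On activation 22 passed the expression limit, of which 0 were higher and 3 lower, beside 11.1% and 8.31% over all genes, and the median was -0.20 against -0.11 over all genes. The 3 were Actn1 (alpha-actinin, 279 to 65.0 CPM, -2.09), Apbb1ip (the Rap1 effector RIAM, -1.51) and Cyth1 (cytohesin-1, -1.13). Between days 3 and 5 without cytokine, Actn1 (1.56) and Apbb1ip (1.08) rose and Rasgrp2, the Rap1 exchange factor, fell (-1.08). Actn1 was higher with IL-15 than with IL-2 (1.54), lower with IL-2v than with IL-15 (-1.45) and lower at the higher dose of IL-2 (-2.82) and of IL-2v (-1.44). Fyb, which encodes the adaptor ADAP, was also lower at the higher dose of IL-2, at means of 234 against 383 CPM (-1.04). In cytokine against none, IL-2v against IL-2, the dose of IL-15 and both day comparisons with cytokine, 0 of the 21 or 22 adaptor genes past the expression limit were counted in either direction. The shares over all genes in these comparisons were at most 2.22% in a direction, so a count of 0 does not set the adaptor genes apart.

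Of 12 genes for integrin ligands listed, 11 were counted and 4 reached 20 CPM in a library. Icam2, a ligand of LFA-1, fell on activation (48.9 to 18.5 CPM, -1.36) and was lower at the higher dose of IL-2 (-1.96). Spp1 (osteopontin) was higher at the higher dose of IL-2 (2.38) and IL-2v (3.36) and lower with IL-15 than with IL-2 (-1.33). Its pairs were far apart, from 0.52 to 6.99 for the dose of IL-2 and from 0.35 to 7.90 for that of IL-2v. For IL-15 against IL-2 they ran from -10.9 to -0.06, at means of 0.304 and 348 CPM. Cdh1, which encodes E-cadherin, the ligand of alphaE beta7, was higher at day 10 than at day 5 in 6 of 6 pairs, with a median of 1.44 and means of 21.2 and 7.42 CPM.

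TGF-beta is a known inducer of Itgae in CD8 T cells, and 16 of 16 listed genes of its pathway were counted, with 10 reaching 20 CPM in a library. On activation 9 passed the expression limit, with 0 higher and 4 lower (beside 11.1% and 8.31% over all genes) and a median of -0.97 against -0.11 over all genes. Among the 4 were Smurf2 (-1.50), Ski (-1.49) and Smad4 (-1.47), of which Smad4 is the common signal transducer and the other two are inhibitors. The fourth, named after its value was seen, was the inhibitor Smad7 (-1.30). Lrrc32, which encodes the latent TGF-beta anchor GARP, was higher with cytokine than without (2.17, means of 20.9 and 2.10 CPM) and lower with IL-15 than with IL-2 (-2.76, means of 4.53 and 39.9 CPM). It was also higher with IL-2v than with IL-15 (2.89) and at the higher dose of IL-2 (2.86) and of IL-2v (1.83). In all 5 it passed the expression limit through the higher arm alone.

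Of 12 genes linked to tissue residency or exit, 12 were counted and 9 reached 20 CPM in a library. On activation 8 passed, with 3 higher and 3 lower (beside 11.1% and 8.31% over all genes) and a median of -0.37 against -0.11 over all genes. Ccr9, a gut-homing receptor like alpha4 beta7, fell from 148 to 1.71 CPM (-5.78). Klf2, which drives the exit receptor S1pr1, fell from 883 to 277 CPM (-1.67), and Prdm1, which encodes Blimp-1, rose from 3.14 to 24.5 CPM (2.62). The others, named after their values were seen, were S1pr1 (-1.43), Rgs1 (1.32) and Runx3 (1.06). At the higher dose of IL-2, S1pr1 (-2.14) and Klf2 (-2.02) were lower and Prdm1 (1.68) higher. With IL-2v these were -2.55, -1.94 and 1.65. Cxcr6 (-1.56) and Rgs1 (1.36), named after their values were seen, also passed for the dose of IL-2. With IL-15 against IL-2, Klf2 was higher (1.70) and Prdm1 (-1.18) and Rgs1 (-2.05) lower. With IL-2v against IL-15, S1pr1 (-1.51) and Klf2 (-1.49) were lower and Prdm1 (1.15) higher. Between days 3 and 5 with cytokine, Cxcr6 (1.52) and S1pr1 (1.33) were higher at day 5. Xcl1 was lower with cytokine than without (-1.81) and rose between days 3 and 5 without cytokine (2.69), with the day 5 library shared by both comparisons. In the latter Cxcr6 also rose (1.46) and Prdm1 fell (-2.26). Of the listed genes named, Itga6, Itgb3, Itgav, Icam2, Spp1, Cdh1, Smurf2, Ski, Ccr9, Prdm1 and Xcl1 passed the expression limit through the higher arm alone, as did Rgs1 on activation and for IL-15 against IL-2, and Actn1 for the dose of IL-2.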

How the data were processed

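Single-cell RNA was measured in 21 libraries of mouse CD8 T cells, 1 per condition. The authors deposited 1 table of raw UMI counts per library (genes by cell barcodes), in which all values were whole. Cell Ranger, Seurat 4.0.1 and Seurat 3.0.2 and the mm10 build are named in the submitters' processing notes. The annotation, the use of strand and any removal of doublets are not given in the sources used here. The extraction protocol describes sorting of tumour-infiltrating cells, while the growth protocol describes culture, and the libraries were taken as cultured cells. Groups follow the sample titles. In 6 libraries the treatment label disagrees with the title: it gives interleukin-3 where the title gives 50 IU/mL IL-2, and interleukin-16 where it gives 50 IU/mL IL-15. Cells of day 7 were not analysed here.

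Of 106458 barcodes, 106456 had 1000 UMIs or more, 500 genes or more and no more than 10% mitochondrial UMIs, and these were used. No doublet caller was run, and cells over 2 times the median UMIs were left out as an alternative. Counts were summed per library and scaled to CPM. Differences used log2(CPM + 1) and genes whose mean reached 20 CPM in either arm. Shares of cells with a UMI of a member were taken after thinning to 2000 UMIs, which left out 57 to 393 cells per library. Shares of cells with cell type markers, and library shares of cells with Mki67 or Top2a, were taken without thinning. No test across libraries was run. Itgae and the other members were named by rule, with other integrin chains reaching 20 CPM, listed genes past the limit (the 3 with the largest median per list and comparison) and the 3 genes most like each member. The members and lists were chosen with earlier results of these data known. The Ccl5 and Gzma splits over all libraries were added after seeing the data. The counting of changes was tested on simulated data. Python 3.11.15, numpy 2.4.6, pandas 2.3.3, scipy 1.17.1 and matplotlib 3.10.9 were used, with R 4.3.3, edgeR 4.0.16 (TMM) and DESeq2 1.42.0 (size factors) for the alternative scalings only.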

Additional observations from a re-analysis of the deposited data

Results flagged for a closer look

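Several results moved in opposite directions under the same contrast in every pair of 2 sets of libraries. None of these differences between sets was tested, and with 3 pairs per set the design has no replicate. Itga4, the alpha4 chain, was lower with IL-2v than with IL-2 in all 3 pairs at 5 IU/mL (median log2 difference -0.79) and higher in all 3 at 50 IU/mL (0.10). Itgal, the alpha chain of LFA-1, did the same, at -0.19 and 0.23. Itgb7 was lower with IL-15 than with IL-2 in all 3 pairs at 5 IU/mL (-0.14) and higher in all 3 at 50 IU/mL (0.27). The Itga4 intervals of IL-2v and IL-2 at 50 IU/mL overlapped at days 3 and 5. The Itgb7 intervals of IL-15 and IL-2 at 5 IU/mL overlapped at day 10. With TMM scaling, median-of-ratios size factors, totals without ribosomal protein and mitochondrial genes and in cells without a division gene, Itgb7 was higher in 4 of the 6 pairs and Itga4 in 2 of 6, so neither pattern was complete. Itgb1 was lower at the higher dose of IL-2 (-0.37) and of IL-2v (-0.056) at all 3 days, and higher at the higher dose of IL-15 (0.017). The Itgb1 intervals at 5 and 50 IU/mL overlapped at all 3 days with IL-15, and at days 5 and 10 with IL-2v, so these signs lie within counting error. With median-of-ratios size factors, and in cells without a division gene, Itgb1 was higher at 50 IU/mL of IL-2v in 1 of 3 days. The Itgb1 direction with IL-15 held in 1 of 3 days with TMM scaling, with median-of-ratios size factors and with totals without ribosomal protein and mitochondrial genes, and in 2 of 3 at 5% mitochondrial UMIs, without cells over 2 times the median UMIs and in cells without a division gene.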

How the results depend on the processing

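The number of integrin values at least 2-fold apart, counted over members and pairs, was recomputed under each alternative. Of 141 such counts under alternatives, 119 stayed within 1.5 times the reported count and 22 moved, and none reversed. Leaving out a day, or a change in which members pass the expression limit, also changes the number of values counted. Such counts are therefore not over the same set. For IL-2v against IL-2 the count of 0 was 1 with TMM scaling, 1 with median-of-ratios size factors, 2 with totals without ribosomal protein and mitochondrial genes and 3 with no expression limit. For IL-2v against IL-15 the count of 5 (of 30 values) was 11 (of 36) with those totals, 3 (of 30) with 10 CPM added and 11 (of 42) with no expression limit. It was 9 (of 24), 3 (of 20) and 2 (of 20) without days 3, 5 and 10. For IL-15 against IL-2 the count of 6 was 12 with no expression limit and 2 without day 10, and its split of 4 higher and 2 lower became 8 and 0 with those totals. For the dose of IL-2 the count of 3 was 6 with no expression limit. For the dose of IL-2v the count of 1 was 3 in cells without a division gene, 0 with 10 CPM added, 3 with no expression limit and 0 without day 10. For the dose of IL-15 the count of 3 was 0 without day 10. With no expression limit, day 5 against day 3 moved from 0 to 2, day 10 against day 5 from 5 to 11, and the days without cytokine from 1 to 2. For cytokine against none the count of 14 (of 72 values) was 2 (of 30) without day 5 and 10 (of 36) without day 3. Of 1025 single values under alternatives, 807 moved by less than their counting interval and 218 by more. The median of all genes shifted by more than 0.1 with TMM scaling in 5 comparisons, at most by 0.15 (day 10 against day 5). No analysis paired by replicate was possible because the labels give no replicate numbers to block on and each condition is 1 library. Libraries were paired only by day, dose or cytokine, and no model was fitted over these pairs. Depth limits Itga1 and Itgae most: in the day 3 libraries Itga1 was at 0.145 to 0.764 CPM. Days and doses are not replicates, and spread between cultures was not measured.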
